A study of Homo sapiens with 6 samples.

Results

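The 10 actin cytoskeleton mRNAs were followed in eIF4B iCLIP. They are ACTB, ACTG1, PFN1, CFL1, TMSB4X, TMSB10, CORO1A, ARPC2, LCP1 and MYH9. The rule picks them by gene symbol and uses no measured value, but it was made with earlier results of these data known. All 10 had cDNA counts in both cell lines, among 12661 coding genes with a count in DoHH-2 and 9747 in GM01953. DoHH-2 is a cell line of diffuse large B-cell lymphoma (DLBCL), and GM01953 is a control B-cell line that comes from people without the disease. The labels list 4 iCLIP replicates of DoHH-2 and 2 of GM01953, into which the authors merged replicates with low read numbers. Neither line was treated, and by the methods each was cross-linked with UVC and immunoprecipitated with the same amount of anti-eIF4B antibody. Each group is a single line and the lines are not isogenic, so disease and line cannot be told apart.

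Actin monomers assemble into filaments that give lymphocytes their shape, their movement and their synapse with other cells. Profilin and the thymosins hold or hand on monomers, cofilin takes filaments apart, the Arp2/3 complex starts branches, and plastin, coronin and myosin bundle, remodel or pull on the filaments. eIF4B is an RNA-binding cofactor of the helicase eIF4A, which unwinds structure in the 5′ UTR during translation initiation. iCLIP counts the cDNAs that end next to a cross-linked nucleotide, so each count marks a position in an mRNA.

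The sequences below surround the highest positions of ACTB, ACTG1, CFL1, TMSB4X and TMSB10, each with at least 20 counts at 1 position. They are shown because they differ in kind, from runs of T in the 3′ UTRs of the actins and cofilin to the G-rich first bases of TMSB4X. Sequences are of the mRNA strand in GRCh38, written with T for U, and capitals mark the cross-linked position, or, in the first line, every position with at least 20 counts in a cell line.
ACTB 3′ UTR, chr7:5527294-5527322, minus strand: TtatTTtGTTTTATTTTgAatGAtgagcc
ACTG1 3′ UTR, chr17:81510084-81510108, minus strand: gtaaggttttttTtgtacgcaattc
CFL1 5′ UTR, chr11:65858129-65858153, minus strand: agcgctctcgtcTtctgcggctctc
CFL1 3′ UTR, chr11:65855034-65855058, minus strand: gagcctgtatttTttttaacaacat
TMSB4X 5′ UTR, chrX:12975110-12975134, plus strand: aactcggtggtgGccactgcgcaga
TMSB4X 3′ UTR, chrX:12976947-12976971, plus strand: caaagaactactGacaacgaaggcc
TMSB10 5′ UTR and start codon, spliced across an intron on chromosome 2, plus strand: cacggattgtttTaagaaaatggca

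The 10 mRNAs took a larger share of the counts in GM01953 than in DoHH-2. They held 16428 of 2033156 counts in DoHH-2, which is 0.808% (95% interval 0.796 to 0.820), and 2964 of 167197 in GM01953, which is 1.77% (1.71 to 1.84). The ratio of these shares was 2.19 (2.11 to 2.28). Intervals here and below are exact and cover counting error only. The replicates of a line were pooled before deposit, so the spread between replicates is unknown and no test between the lines could be made. The counts hold mRNA abundance and eIF4B binding together, which cannot be told apart since input RNA was not used here.

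All 10 mRNAs were bound in both lines, where bound means more than 20 counts at positions with a false discovery rate (FDR) below 0.05. The paper also required enrichment over total RNA. That step was not applied here, so an abundant mRNA can pass, and bound does not mean a target in the paper's sense. The same held for 32.9% of the coding genes with a count in DoHH-2 and for 8.35% in GM01953. Counts at such positions ran from 50 for CORO1A to 6329 for ACTB in DoHH-2, and from 30 to 1015 in GM01953. With the DoHH-2 counts at these positions scaled down to the total of GM01953, 8 of the 10 would still exceed 20 counts. The positions were those called at full depth, so whether the 8 would be bound at the lower depth was not tested. No share of all coding genes at that depth is given here.

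Markers of B cells were present, with counts for 7 of 8 genes in DoHH-2 and for 8 of 8 in GM01953, while 5 T-cell and 4 myeloid marker genes had 0 counts in both lines. Of 5 fibroblast and epithelial genes, EPCAM alone had counts, 2 in DoHH-2. Summed over the 8 B-cell genes, levels were 981 CPM in DoHH-2 and 4097 CPM in GM01953, where CPM gives the counts per 1000000 counts of a line, and the part of this difference in the results below was not tested. Most of it lay in CD74 (503 and 2147 CPM) and MS4A1 (6.39 and 909). CD79B was lower in GM01953 (48.7 and 41.9 CPM), and the ratios of CD79B, PAX5 (1.27) and BLNK (1.37) had intervals that include 1.

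ACTB encodes β-actin and ACTG1 encodes γ-actin, the 2 actins of non-muscle cells. ACTB lies on chr7:5527148-5530601 (minus strand, 6 exons). It had 6467 counts in DoHH-2, or 3181 CPM, and 1074 in GM01953, or 6424 CPM. It was the coding gene with the 17th highest count in DoHH-2 and the 2nd highest in GM01953, and the GM01953 level was 2.02 times the DoHH-2 level (1.89 to 2.15). ACTG1 (chr17:81509971-81512799, minus strand, 6 exons) had 985 CPM from 2003 counts in DoHH-2 and 1561 from 261 counts in GM01953. Its ratio was 1.58 (1.39 to 1.80), lower than that of ACTB, and the intervals of the 2 ratios do not overlap.

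The genes that bind actin monomers or take filaments apart differed more from each other. PFN1, profilin 1 (chr17:4945652-4948530, minus strand, 3 exons), had 988 CPM in DoHH-2 (2009 counts) and 3403 in GM01953 (569 counts), giving a ratio of 3.44 (3.13 to 3.78). CFL1, cofilin 1 (chr11:65854673-65858180, minus strand, 4 exons), had 934 CPM in DoHH-2 (1898 counts) and 2087 in GM01953 (349 counts), giving a ratio of 2.24 (1.99 to 2.51). The β-thymosins hold monomers in reserve, and the pair was unlike. TMSB4X (chrX:12975110-12977223, plus strand, 3 exons) had the highest ratio of the 10, 6.03 (5.04 to 7.20), from 187 CPM in DoHH-2 (381 counts) and 1130 in GM01953 (189 counts). TMSB10 (chr2:84905656-84906671, plus strand, 3 exons) had 330 CPM in DoHH-2 (670 counts) and 538 in GM01953 (90 counts), and its ratio was 1.63 (1.30 to 2.04).

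Among the genes that branch, bundle or pull on filaments, 2 had low levels in DoHH-2 and high ratios. ARPC2, a subunit of the Arp2/3 complex (chr2:218217189-218254348, plus strand, 11 exons), had 126 CPM in DoHH-2 (256 counts) and 622 in GM01953 (104 counts), giving a ratio of 4.94 (3.89 to 6.23). CORO1A, the coronin of haematopoietic cells (chr16:30183602-30189076, plus strand, 11 exons), had 68.9 CPM in DoHH-2 (140 counts) and 329 in GM01953 (55 counts), giving a ratio of 4.78 (3.43 to 6.57). These were the 2 lowest levels in DoHH-2. LCP1, or L-plastin, which bundles filaments in leukocytes (chr13:46125923-46182177, minus strand, 16 exons), had 820 CPM in DoHH-2 (1668 counts) and 987 in GM01953 (165 counts). Its ratio, 1.20 (1.02 to 1.41), was the lowest of the 10. MYH9, the heavy chain of non-muscle myosin IIA (chr22:36281280-36387967, minus strand, 41 exons), had 460.4 CPM in DoHH-2 (936 counts) and 646 in GM01953 (108 counts), giving a ratio of 1.40 (1.14 to 1.71).

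**Figure D1:**
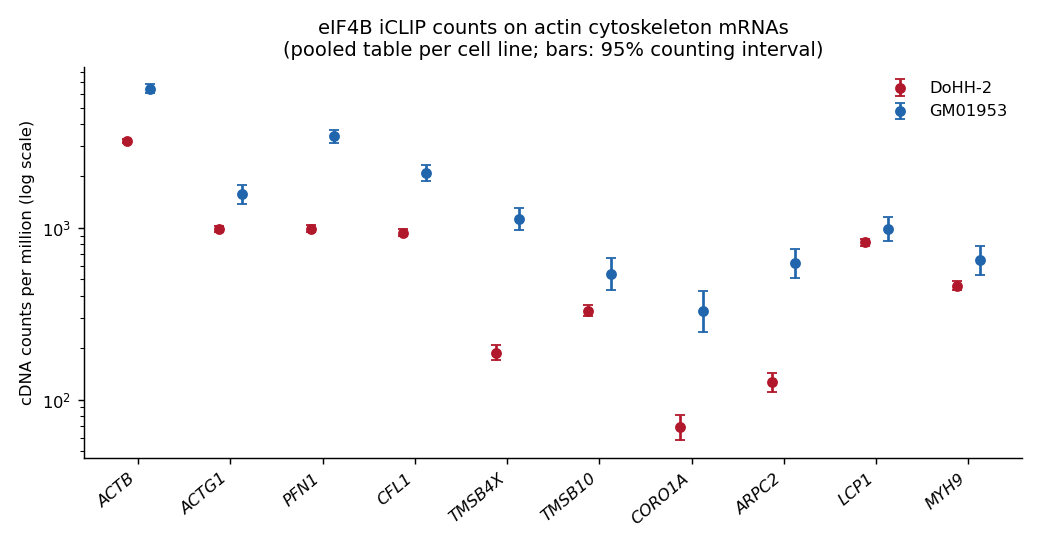
CPM (log scale) on each of the 10 mRNAs in DoHH-2 (red) and GM01953 (blue), from 1 pooled table per cell line, with 95% Poisson intervals of the count. Every blue point lies above its red point, from LCP1 (820 and 987) to TMSB4X (187 and 1130).

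Every one of the 10 ratios was above 1, and 6 were at least 2-fold (ACTB, PFN1, CFL1, TMSB4X, CORO1A and ARPC2). Over 3339 coding genes with a mean of at least 60 CPM in the 2 lines, 18.0% were at least 2-fold higher in GM01953 and 16.5% at least 2-fold higher in DoHH-2, where none of the 10 was. The median ratio of the 10 was 2.13, beside 0.986 over all these genes. This contrast was lost at positions with an FDR below 0.05. There 4 of the 10 were at least 2-fold higher in GM01953 (PFN1, TMSB4X, CORO1A and ARPC2), while the share of 2972 coding genes was 44.4%. The median of the 10 was then 1.58 and that of all genes 1.63. The ratio of ACTB was then 1.53, that of TMSB10 1.09 and that of LCP1 1.01, whereas TMSB4X had 5.17, CORO1A 5.73 and ARPC2 5.51.

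**Figure D2:**
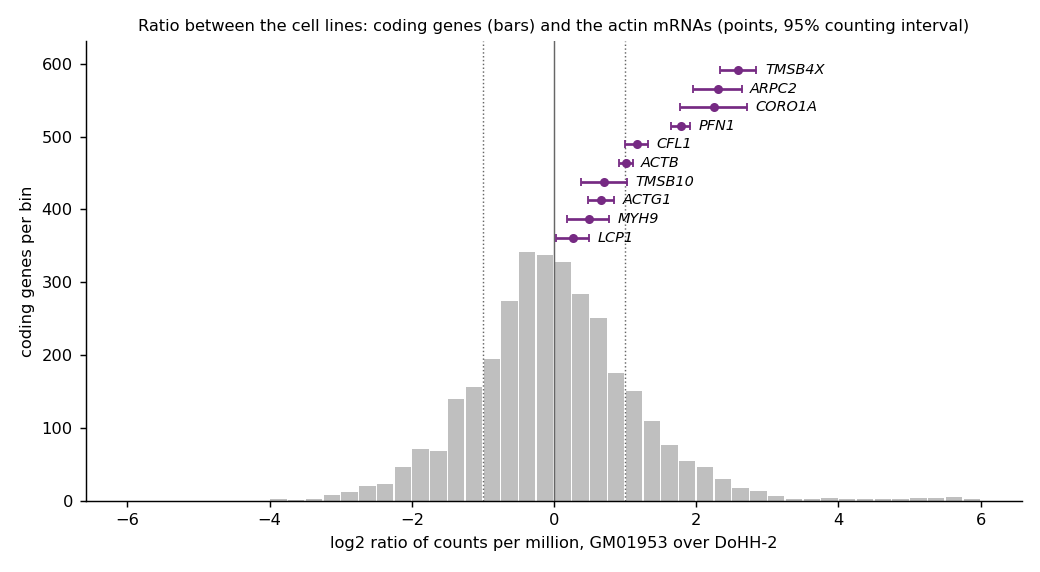
Log2 ratio of CPM, GM01953 over DoHH-2, for 3339 coding genes (grey bars) and for each of the 10 mRNAs (points with 95% counting intervals, stacked upward for legibility), dotted lines at 2-fold. All 10 points lie to the right of 0, with LCP1 nearest to it and TMSB4X farthest, and 58 coding genes with a log2 ratio of at least 6 lie beyond the bars.

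Per length of mRNA the order of the genes differed between the lines. In CPM per kb of exon, ACTB led in DoHH-2 at 1719 (1677 to 1762), followed by PFN1 at 1176 (1124 to 1230). In GM01953 PFN1 led at 4150 (3814 to 4509) and ACTB was second at 3495 (3288 to 3713). The next in DoHH-2 were CFL1 (723), TMSB10 (697), ACTG1 (494), TMSB4X (285) and LCP1 (205), and only the intervals of CFL1 and TMSB10 overlap among neighbours in that order. ARPC2 (78.5), MYH9 (53.0) and CORO1A (38.8) were lowest. In GM01953 TMSB4X (1779) moved up beside CFL1 (1657), with overlapping intervals, and TMSB10 (1168), ACTG1 (801) and ARPC2 (424) followed. LCP1 (266) and CORO1A (184) were not separated by their intervals there, and MYH9 was lowest at 78.7.

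At most 14.2% of the counts of a gene lay outside the exons of its MANE Select transcript. Part of some mRNAs cannot be read uniquely. Words of 31 nt were taken as unique if they occur at most once in the genome and in the MANE Select transcript of a single gene. Such words cover 14.2% of TMSB4X, which has processed pseudogenes, and 54.3% of ACTB, 72.1% of ACTG1 and at least 80.8% of each of the others. Of the TMSB4X exon counts, 31.9% in DoHH-2 and 33.0% in GM01953 lay at unique positions, and on those alone its ratio was 6.45. Positions named for TMSB4X pseudogenes held a further 100 counts in DoHH-2 and 39 in GM01953. ACTB and ACTG1 have coding sequences that are both 1128 nt long and share 1029 bases (91.2%), yet 77.7% and 89.9% of their exon counts in DoHH-2 lay at unique positions. Counts on the coding sequence of ACTB were 2.68 times those of ACTG1 in DoHH-2 (3246 and 1210) and 2.96 times in GM01953 (604 and 204).

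Along the mRNAs, the 5′ UTR was the most densely cross-linked region in the sum of the 10, but not in every mRNA. In DoHH-2 ACTB had 4588 counts per kb in its 3′ UTR and 3964 in its 5′ UTR. ACTG1 was densest in its coding sequence there. In GM01953 the 5′ UTR was not the densest region of ACTG1, TMSB10 or ARPC2. Summed over the 10, the 5′ UTRs make up 4.74% of the exon length and held 12.3% of the exon counts in DoHH-2 (11.8 to 12.8) and 16.3% in GM01953 (15.0 to 17.7). The sum is weighted by counts and so by ACTB. As the mean of the 10 mRNAs' own shares, the 5′ UTR share was 19.9% in DoHH-2 and 18.1% in GM01953, so the direction between the lines turned. Of the summed counts, 45.5% in DoHH-2 and 46.9% in GM01953 lay on the coding sequence and 42.2% and 36.9% in the 3′ UTR. All coding genes gave a 5′ UTR share of 11.0% and 17.2% and a 3′ UTR share of 35.5% and 29.7%. Without the histone genes these were 13.0% and 19.7%, and 35.8% and 26.1%, so the 5′ UTR share of the 10 in DoHH-2 lay between the values with and without histones. In GM01953 it lay below both, with an interval that includes the value with histones. The summed 3′ UTR share of the 10 lay above both values in each line. The density of counts per nt in the 5′ UTR exceeded that of the coding sequence in 9 of 10 mRNAs in DoHH-2 and in 8 of 10 in GM01953, with intervals above 1 in 8 and 7. The median ratio of these densities was 3.49 in DoHH-2 and 3.06 in GM01953. ACTG1 was below 1 in both lines, at 0.855 (0.657 to 1.09) and 0.154 (0.018 to 0.562). These density ratios were not set beside those of all coding genes, so they show no trait particular to the 10.

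The 3′ UTR was denser than the coding sequence in 8 of 10 mRNAs in DoHH-2 and in 6 of 10 in GM01953, with intervals above 1 in 6 and 3. All coding genes were not set beside these counts either. CORO1A, whose 3′ UTR is 112 nt long, had 0 counts there in both lines. The exact intervals reach 2.84% of its 128 exon counts in DoHH-2 and 7.11% of its 50 in GM01953, and a limit of 3 counts gives 2.34% and 6.00%. These shares depend on the transcript chosen. With the longest coding transcript in place of the MANE Select transcript, the 5′ UTR share fell to 7.70% in DoHH-2 and 9.51% in GM01953.

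**Figure D3:**
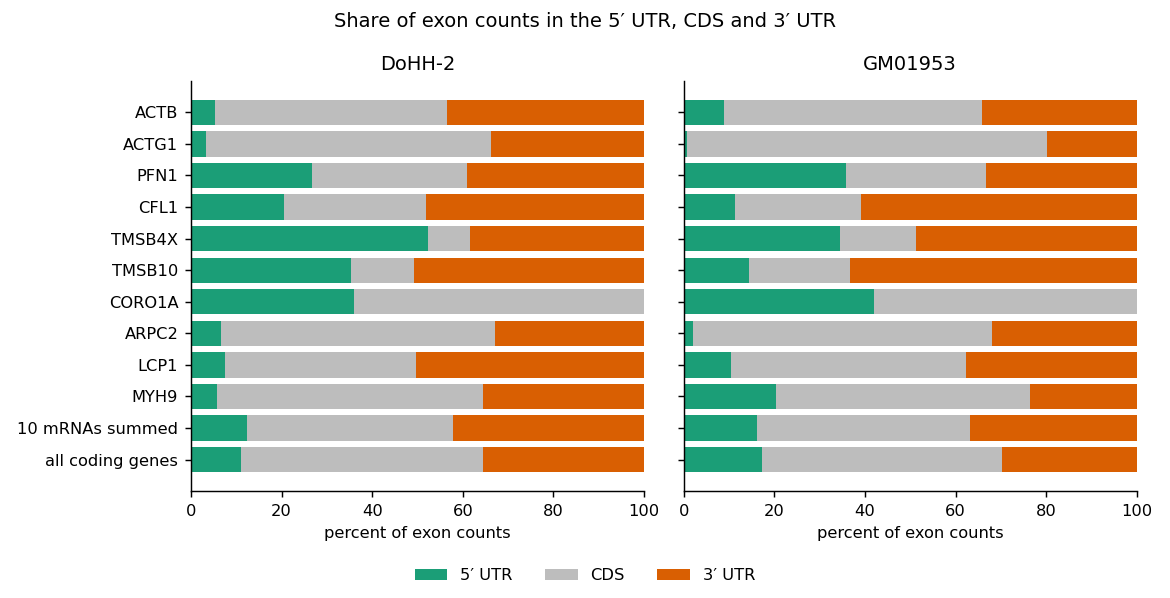
Share of exon counts in the 5′ UTR (green), coding sequence (CDS, grey) and 3′ UTR (orange) of each mRNA, of the 10 summed and of all coding genes, in DoHH-2 (left) and GM01953 (right). TMSB4X has the widest 5′ UTR bar in DoHH-2 (52.2%), ACTG1 the widest coding bar in GM01953 (79.4%), and CORO1A has no 3′ UTR bar in either line.

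The 5′ UTR share moved between the lines in both directions. Its intervals did not overlap in 6 of the 10, and the same was true of 30.5% of 239 coding genes with at least 50 exon counts in each line. TMSB4X had 52.2% of its exon counts in the 5′ UTR in DoHH-2 (188 of 360) and 34.6% in GM01953 (64 of 185). TMSB10 had 35.2% (230 of 653) and 14.4% (13 of 90), and CFL1 20.4% (374 of 1830) and 11.3% (39 of 345). The other 3 were higher in GM01953. PFN1 had 26.7% in DoHH-2 and 35.9% in GM01953, ACTB 5.26% and 8.88%, and MYH9 5.85% and 20.4%. MYH9 thus had 47 of 803 counts in its 5′ UTR in DoHH-2 and 20 of 98 in GM01953.

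In the coding sequence and the 3′ UTR fewer of the 10 differed. The coding share of ACTB was 51.3% in DoHH-2 against 57.0% in GM01953, and that of ACTG1 62.7% and 79.4%. Those 2 of 10 did not overlap, against 31.4% of the 239 genes. The 3′ UTR share did not overlap in 4 of 10, against 46.4% of the same genes. It was higher in DoHH-2 for ACTB (43.5% and 34.1%), ACTG1 (33.9% and 19.8%) and LCP1 (50.3% and 37.7%), and higher in GM01953 for CFL1 (48.2% and 60.9%).

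Within 50 nt of the start codon the 10 mRNAs held 9.77% of their exon counts in DoHH-2 and 12.3% in GM01953, close to the 9.74% and 12.1% of all coding genes. Around the stop codon they held 8.43% and 9.98%. All coding genes had 17.5% and 15.6% there, or 5.66% and 5.92% without the histone genes. PFN1 had 17.3% there in DoHH-2 and 26.1% in GM01953, and TMSB10 had 17.2% and 22.2%, with intervals that overlap those of PFN1. The window makes up 12.8% of PFN1 and 22.3% of TMSB10, which are short mRNAs. CORO1A had 0 counts in that window in both lines.

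In ACTB a single stretch of the 3′ UTR carried much of the signal. A window of 10 nt to each side of the highest DoHH-2 position, mRNA nt 1642 to 1662, lies 430 to 450 nt after the stop codon, in the T-rich sequence printed first above. It is 1.16% of the mRNA and held 625 of 6332 exon counts in DoHH-2, or 9.87% (9.15 to 10.6), and 247 of 1059 in GM01953, or 23.3% (20.8 to 26.0). In GM01953 that was 68.4% of all counts in the ACTB 3′ UTR. The rest of the 3′ UTR, 579 nt, held 33.6% of the exon counts in DoHH-2 (32.4 to 34.8) and 10.8% in GM01953 (8.96 to 12.8). The stretch thus had the larger share in GM01953 and the rest of the 3′ UTR the larger share in DoHH-2, both with intervals that do not overlap. The window was picked with values in view, and both are shares of the same exon counts, so they are a description.

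Within the stretch the lines also differed by nucleotide. Position 1653 had 68 counts in DoHH-2 and 67 in GM01953, where it was the highest of the mRNA and held 6.33% of the exon counts. Its upstream neighbour, 1652, had 87 and 30 and was the highest in DoHH-2. Position 1646 had 80 counts in DoHH-2 and 2 in GM01953, but the 31 nt downstream of it are not unique in the genome. In the coding sequence the highest position of ACTB in DoHH-2 was nt 463, with 81 counts there and 22 in GM01953.

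The start of the ACTB 3′ UTR holds the zipcode, an element known for directing the mRNA to the cell edge through the protein ZBP1, and the first 54 nt were taken for it. The sequence below is shown because most counts there fell on the motif CGGACT (capitals).
ACTB zipcode, chr7:5527719-5527746, minus strand: CGGACTatgacttagttgcgttacaccc
DoHH-2 had 74 counts in the first 54 nt after the stop codon, 52 of them at 1 position, the T that ends the motif (chr7:5527741), and 22 at the other positions. GM01953 had 0 of 1059, for which the exact interval reaches 0.348% and a limit of 3 counts gives 0.283%, beside 1.17% in DoHH-2 (0.919 to 1.46). The DoHH-2 interval treats the 74 counts as separate draws, although 52 lay at 1 position. The segment was also picked with values in view, so these shares are a description and show no difference over the whole segment. The motif starts 2 nt after the stop codon, was found once in the ACTB 3′ UTR, and was searched on the mRNA strand. It occurs in the first 54 nt of 84 of 18362 3′ UTRs (0.457%), ACTG1 among them, and in none of the other 8 mRNAs. ACTG1 had 57 counts in its first 54 nt in DoHH-2, spread over positions with at most 7 each, and 3 in GM01953.

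The highest position of ACTG1 in DoHH-2 also lay late in its 3′ UTR, at nt 1794, with 30 counts in DoHH-2 and 1 in GM01953. A window placed on the highest position of a line favours that line, so the shares of such windows, here and below, are a description. In the 21 nt around nt 1794 DoHH-2 had 6.74% of the exon counts (5.66 to 7.95) and GM01953 4.67% (2.44 to 8.01), so the window did not differ beyond counting error. In GM01953 the highest was nt 229 in the coding sequence, with 14 counts, and its window held 8.56% there (5.44 to 12.7) and 2.18% in DoHH-2 (1.57 to 2.93).

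**Figure D4:**
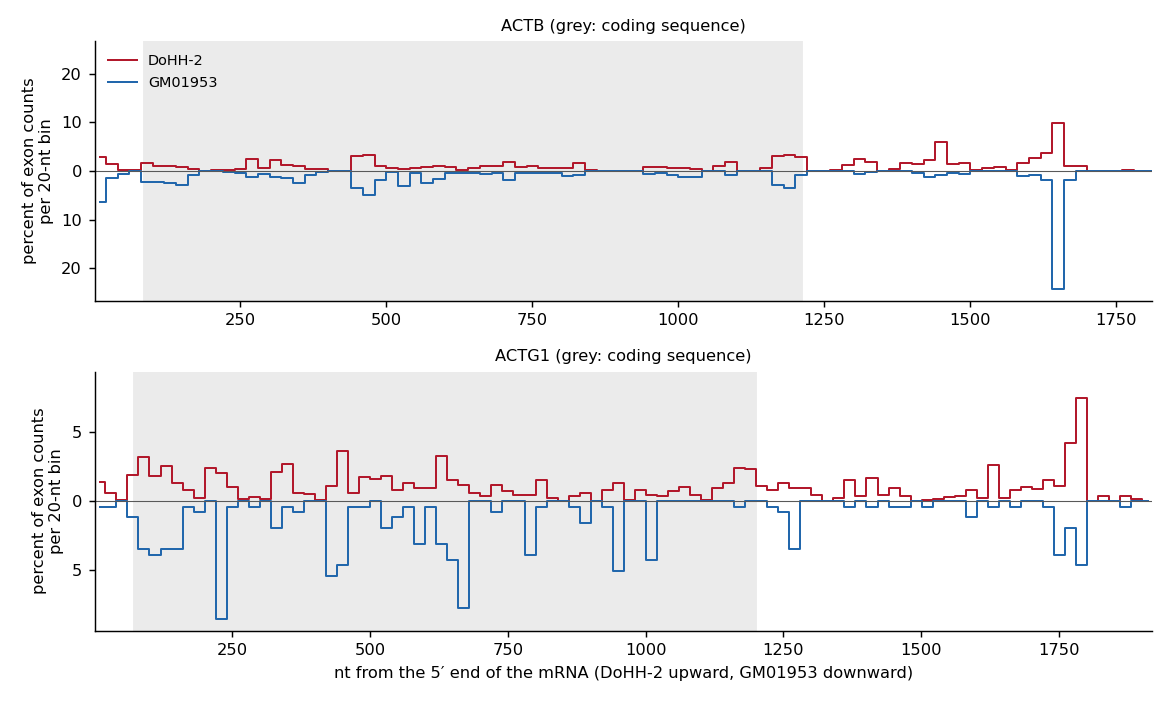
Percent of exon counts per bin of 20 nt along ACTB (top) and ACTG1 (bottom), DoHH-2 upward in red and GM01953 downward in blue, coding sequence in grey. The tall blue bin of ACTB is the T-rich stretch of the 3′ UTR, and ACTG1 has its tallest DoHH-2 bin late in the 3′ UTR and its tallest GM01953 bin in the coding sequence.

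TMSB4X, TMSB10 and CFL1 had less of their counts near the 5′ end in GM01953 than in DoHH-2. In TMSB4X, nt 3 to 23 held 148 of 360 exon counts in DoHH-2, or 41.1% (36.0 to 46.4), and 38 of 185 in GM01953, or 20.5% (15.0 to 27.1). Its highest GM01953 position, nt 358 in the 3′ UTR, had 27 counts, or 14.6% of its exon counts, and 5 counts in DoHH-2. Neither position lies in unique sequence. In TMSB10 the peak was 7 nt before the start codon, at nt 72, with 27 counts in DoHH-2 and 2 in GM01953. The 21 nt around it held 14.5% in DoHH-2 (11.9 to 17.5) and 4.44% in GM01953 (1.22 to 11.0). The highest TMSB10 positions in GM01953, nt 227 and nt 389, were both in the 3′ UTR, with 8 counts each.

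CFL1 had its highest DoHH-2 position in the 5′ UTR, nt 40, with 35 counts, where GM01953 had 0. The 21 nt around it held 175 counts in DoHH-2, or 9.56% (8.25 to 11.0), and 22 in GM01953, or 6.38% (4.04 to 9.496), with overlapping intervals. The highest GM01953 position, nt 872, is in a run of T in the 3′ UTR and had 23 counts, beside 18 in DoHH-2. Its window held 14.8% of the GM01953 exon counts (11.2 to 19.0) and 8.96% of those of DoHH-2 (7.69 to 10.4).

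**Figure D5:**
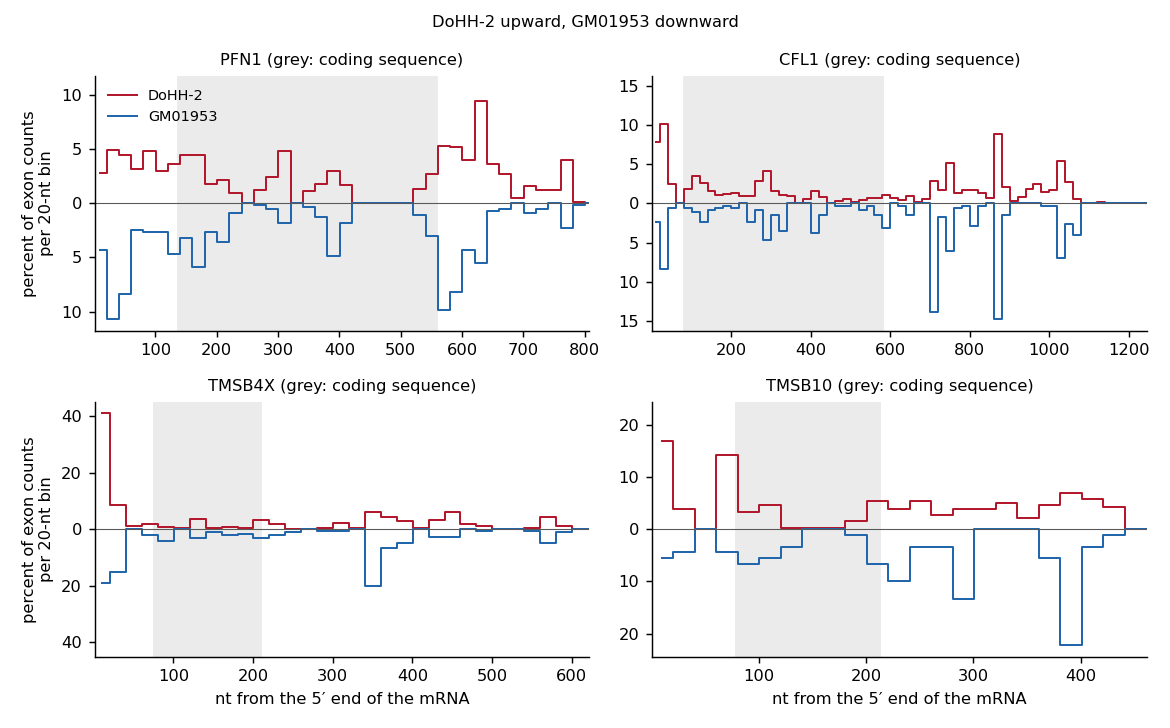
Percent of exon counts per bin of 20 nt along PFN1, CFL1, TMSB4X and TMSB10, DoHH-2 upward in red and GM01953 downward in blue, coding sequence in grey. PFN1 has like outlines in both lines, the first bins of TMSB4X and TMSB10 are taller in DoHH-2, and CFL1 has tall GM01953 bins in the 3′ UTR.

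In the less covered mRNAs single positions carried few counts. MYH9 had 16 counts in DoHH-2 and 9 in GM01953 at nt 175, which lies 6 nt before the start codon. In each line a coding position tied with it, nt 1681 in DoHH-2 and nt 3621 in GM01953, and each of these had 0 counts in the other line. The 21 nt around nt 175 held 4.48% (3.16 to 6.15) of the exon counts in DoHH-2 and 15.3% (8.83 to 24.0) in GM01953. ARPC2 had 19 counts at nt 83, early in its coding sequence, in DoHH-2 and 0 in GM01953, where the highest was nt 1168 in the 3′ UTR with 10 counts, again 0 in the other line. LCP1 had 19 counts at nt 470 of the coding sequence in DoHH-2 and 11 at nt 716 in GM01953. No CORO1A position had more than 6 counts.

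The positions of the well covered mRNAs recurred between the lines. Of the GM01953 exon counts of the 10, 87.5% (86.2 to 88.7) lay at positions that DoHH-2 also had, against 48.6% over all coding genes. The share ran from 96.4% for ACTB and 93.9% for PFN1 down to 37.8% for MYH9, 34.0% for CORO1A and 21.0% for ARPC2, and it moves with depth. With DoHH-2 thinned to the total of GM01953, 42.9% would be expected for the 10 and 22.0% for all coding genes. Over bins of 20 nt, the Spearman correlation of the 2 profiles was 0.886 for PFN1 (41 bins), 0.740 for ACTB (91 bins) and 0.272 for MYH9 (373 bins). Bins of 1 mRNA share its length and base composition, so these values are a description.

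Summed over the 10, the cross-linked base was T more often than the mRNAs hold it. ACTB gave 6332 of the 15711 exon counts in DoHH-2, and 625 of these lay in its T-rich window. No T share of all coding genes is given here. T made up 41.9% of the exon counts in DoHH-2 (41.1 to 42.7) and 37.5% in GM01953 (35.7 to 39.3), and 22.8% of the bases when each mRNA is weighted by its counts. With each position counted once the shares were 29.8% and 32.7%, lower than when weighted by counts, and the direction between the lines turned. Over every base of the 10 mRNAs, without weights, T made up 21.0%. The next base downstream was T in 45.0% and 43.1%, and G in only 10.4% and 6.64%, where G makes up 25.8% of the weighted bases. In ACTB a further 31 counts in DoHH-2 and 5 in GM01953 lay 1 nt before the annotated first base of the mRNA, the position read from a cDNA that starts at that base.

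A wider list of 59 genes of the actin cytoskeleton was counted in the same way. In DoHH-2 44 of them were bound and in GM01953 21, beside 32.9% and 8.35% of the coding genes with a count. GM01953 has 167197 counts against 2033156 in DoHH-2, so these numbers cannot be compared between the lines. Of the 59, 40 reached a mean of 60 CPM. Of the 40, 15 (37.5%) were at least 2-fold higher in GM01953 and 2 at least 2-fold higher in DoHH-2, beside 18.0% and 16.5% of all coding genes. However, 8 of the 15 were below 60 CPM in DoHH-2 and passed the mean only through GM01953, where they were high, so these counts are no support for a shift of the list. Among the 31 genes with at least 60 CPM in both lines, 7 (22.6%) were at least 2-fold higher in GM01953 and 1 in DoHH-2, beside 8.58% and 9.17% of 2203 coding genes, and all 10 of the mRNAs above had at least 60 CPM in both lines. At positions with an FDR below 0.05 the counts were 21 (52.5%) and 8 of 40, beside 44.4% and 18.4% of all coding genes. RHOA, the GTPase that drives stress fibres, had the most counts of the list in both lines, 480.5 CPM in DoHH-2 and 508 in GM01953. TAGLN2 (401 CPM) and the tropomyosin TPM3 (339) followed in DoHH-2, and COTL1 (467) and filamin A, FLNA (443), in GM01953.

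Of the 40 genes, those farthest past 2-fold towards GM01953 had few counts in DoHH-2, and the mean of 60 CPM was reached through GM01953. COTL1, a coactosin that binds filaments, had 3 counts in DoHH-2 and 78 in GM01953, which is a ratio of 316 with a counting interval from 104 to 1566. MYO1E, a class I myosin, had 3 and 40, which is a ratio of 162 (51.6 to 819). The filament elongation factor VASP was next among the 40 at 4.86 (2.82 to 8.11), from 55 and 22 counts. TAGLN2 (0.447, 0.300 to 0.643) and the coronin CORO1C (0.430, 0.204 to 0.802) were the 2 of the 40 past the fold towards DoHH-2, so CORO1C and CORO1A lay on opposite sides.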

How the data were processed

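RNA of DoHH-2 (4 replicates) and GM01953 (2) was sequenced by eIF4B iCLIP. The authors removed PCR duplicates with BBMap dedupe, aligned the reads with HiSat2 (GRCh38), and ran iCount on the replicates of a line together. The deposited counts are cDNAs per position, not normalized, and the deposited FDR column is that of iCount for each position. Versions and annotation release are not given in the sources used here.

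Positions, deposited from 0, were read from 1, each counted once per gene, and placed on the MANE Select transcript of GENCODE release 44 (scipy 1.17.1, pysam 0.24.0). Counts were divided by all 2033156 or 167197 counts to give CPM. Ratios use a floor of 3 counts per line for all coding genes. Exact 95% intervals cover counting error only. The steps were tested on simulated data. The rule named the 10 mRNAs, their 3 highest positions per line (many of them, and the highest of PFN1, are not reported here) and, from the wider list, the 3 with most counts and the 3 farthest past 2-fold each way. The ACTB window and zipcode segment were picked with values in view. The mRNAs and lists were chosen with earlier results of these data known. Alternatives changed the FDR, denominator, transcript, uniqueness, window and depth. Input RNA was not analysed here.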

Additional observations from a re-analysis of the deposited data

How the results depend on the processing

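Each line is 1 pooled table, so neither the spread between replicates nor the effect of leaving out a replicate could be computed. No paired analysis was possible because no column belongs to a single replicate. GM01953 has 167197 counts against 2033156 in DoHH-2, so its positions with few counts are the least certain. All 6 alternatives to each single-gene ratio kept it above 1, except that TMSB10 became 0.898 and LCP1 0.944 at an FDR below 0.01. Below 0.05 and below 0.01 alike, the counting intervals of ACTG1 (1.14 and 1.05), TMSB10 and LCP1 included 1. That of MYH9 did so below 0.01 (1.21, 0.910 to 1.59). The cause of the shifts was not tested.

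At an FDR below 0.05 the shares of the 10 mRNAs were 1.64% in DoHH-2 and 2.77% in GM01953 (ratio 1.69), and below 0.01 they were 1.75% and 2.88% (1.65). Of counts on coding exons they were 1.15% and 2.88% (2.50), and without histones 1.46% and 3.38% (2.32). On MANE exons DoHH-2 had 0.773%, and in unique sequence 0.666% and GM01953 1.51%. Coding exons as the denominator moved the median of all genes by 0.15 (log2) and an FDR below 0.05 by 0.72.

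With the longest coding transcript the 5′ UTR, coding and 3′ UTR shares were 7.70%, 55.3% and 37.0% in DoHH-2 and 9.51%, 62.3% and 28.2% in GM01953. As the mean of the mRNAs' own shares they were 19.9%, 42.8% and 37.2% in DoHH-2, and the 5′ UTR 18.1% in GM01953, which turned the direction of the 5′ UTR share between the lines. With each position counted once they were 9.08%, 51.6% and 39.3% in DoHH-2, and the coding and 3′ UTR shares 52.6% and 29.95% in GM01953. In DoHH-2 the 5′ UTR share was 13.0% at an FDR below 0.05 and 13.2% in unique sequence. Within 25 nt of the start codon lay 5.31% and 6.06%, and of the stop codon 5.05% and 6.06%, in DoHH-2 and GM01953.

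Positions shared within 3 nt came to 97.0%, beside 66.4% over all coding genes. With DoHH-2 thinned, shared positions came to 42.9%, beside 22.0%. The T share was 29.8% and 32.7% with each position counted once, 37.1% and 35.4% at 1 nt upstream, and 45.0% and 43.1% at 1 nt downstream. Among the wider list, 7 genes in place of 15 were at least 2-fold higher in GM01953 with 60 CPM required in both lines, an alternative chosen after seeing the data, as was the FDR for this list. Of 84 alternatives to the main values, 39 stayed within the counting interval or 1.5 times a count.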
